A study of Mus musculus with 108 samples.

Results

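Voltage-gated calcium channels are built around a large pore-forming alpha-1 subunit, and the genes of 8 such subunits were followed here through the developing mouse brain. The genes were taken from the table of counts by their Ensembl identifiers, and Cacna1a, Cacna1b, Cacna1c, Cacna1d, Cacna1e, Cacna1g, Cacna1h and Cacna1i each matched 1 of its 53465 rows. Bulk RNA-seq of ribosome-depleted total RNA had been made of 3 brain regions, the cerebral cortex (CX), the hippocampus (HIP) and the cerebellum (CB), from wild-type (WT) and Cul3+/- (HET) mice, with 6 mice of each genotype in late embryos (E17.5), at postnatal day 7 (P7) and in young adults (P35 in the labels, and 4 to 6 weeks in the methods of the study). All mice were untreated and of the C57BL/6N background (C56Bl/6N in the labels). The HET mice came from 1 founder that carried a 1-bp frame-shifting insertion in exon 6 of Cul3, made with CRISPR/Cas9, and were heterozygous in the germline and hence in all cells. The labels give no sex for a mouse. For 2 adult mice (WT and HET in the labels) the quality table of the study gives the opposite genotype, and their 6 libraries were left out, which left 102 libraries with 6 mice in a group, or 5 in an adult group.

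Each alpha-1 subunit carries the voltage sensors and the pore, and so sets the class of calcium current. Cacna1a encodes the P/Q-type and Cacna1b the N-type channel, both of which let in the calcium that triggers transmitter release at presynaptic terminals. Cacna1c and Cacna1d encode L-type channels, which lie mostly on cell bodies and dendrites and couple activity to gene expression. Cacna1e encodes the R-type channel. Cacna1g, Cacna1h and Cacna1i encode the T-type channels, which open near the resting potential and drive rebound firing. The P/Q-type channel is well known as the main calcium channel of Purkinje cells, where mutations of Cacna1a cause ataxia.

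All 8 genes had counts in all 108 libraries, between 74 for Cacna1h and 16662 for Cacna1e, and none of their counts was fractional. They lie on 8 chromosomes (GRCm38, Gencode M21): Cacna1a at chr8:84388440-84640246 on the plus strand, Cacna1b at chr2:24603887-24763152 on the minus strand, Cacna1c at chr6:118587240-119196418 on the minus strand, Cacna1d at chr14:30039939-30491455 on the minus strand, Cacna1e at chr1:154390731-154884501 on the minus strand, Cacna1g at chr11:94408391-94474198 on the minus strand, Cacna1h at chr17:25374285-25433783 on the minus strand, and Cacna1i at chr15:80287238-80398279 on the plus strand. The counts cover the exons of each gene, UTRs included. The merged exons are long, from 9763 bp for Cacna1h to 25228 bp for Cacna1e, so levels were compared between genes only as CPM (counts scaled to library size by TMM) per kb of exon.

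For a view of the sequence in front of the genes, the promoters of the member with the largest cerebellar rise after P7 (Cacna1i) and of Cacna1b, the most abundant member per kb in E17.5 CB, which fell there before P7, are shown. RefSeq promoters (GRCm38.p6) matched 5 of the 8 genes. Each line gives the 250 bases before the annotated start, 5′ to 3′ on the strand of the gene, at chr15:80286988-80287237 (plus strand) and at chr2:24763153-24763402 (minus strand), with GGGCGG on either strand in capitals.
Cacna1i: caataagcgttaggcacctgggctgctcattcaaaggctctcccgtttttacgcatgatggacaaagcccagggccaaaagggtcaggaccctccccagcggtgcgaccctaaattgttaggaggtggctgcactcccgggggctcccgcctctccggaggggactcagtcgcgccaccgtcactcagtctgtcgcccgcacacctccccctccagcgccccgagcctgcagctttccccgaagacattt
Cacna1b: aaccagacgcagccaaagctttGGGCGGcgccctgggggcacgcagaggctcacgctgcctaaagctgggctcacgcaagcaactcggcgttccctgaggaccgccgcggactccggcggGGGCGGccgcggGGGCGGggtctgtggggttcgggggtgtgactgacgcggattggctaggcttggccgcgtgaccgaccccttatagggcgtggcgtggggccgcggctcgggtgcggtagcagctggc
The Cacna1b window held 29 CpG dinucleotides and 3 copies of GGGCGG, and the Cacna1i window held 16 CpG dinucleotides and 0 copies, while 32.7% of the 32851 promoters of the table held the motif within the same length. The match is a description of these letters.

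The libraries held between 15126114 and 44411282 counts, and the 2 smallest were both E17.5 HIP WT libraries (replicates 1 and 4). In each of the 9 period-by-region datasets every WT library had more Cul3 than every HET library, with log2 fold changes from -0.99 to -0.74. In adults the 5 granule cell genes summed to a median of 2960 CPM in WT CB against 111 CPM in CX and 122 CPM in HIP, the 6 Purkinje cell genes to 8830 CPM in CB against 1190 and 802 CPM, the 6 cortical projection neuron genes to 1440 CPM in CX against 1130 CPM in HIP and 500 CPM in CB, and the 5 hippocampal neuron genes to 1010 CPM in HIP against 566 CPM in CX and 260 CPM in CB. At younger ages some lists did not separate the regions, as the cortical list in P7 CX (844 to 1190 CPM) and HIP (867 to 1070 CPM) and the granule cell list in E17.5 CB and HIP (medians of 239 and 228 CPM). Choroid plexus genes ranged from 11.8 to 3020 CPM among the adult CB WT libraries and reached 2060 CPM among the HET ones.

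In WT brain the leading alpha-1 subunit gene per kb varied with region and period, although CX and HIP shared it at E17.5 and at P7. At E17.5 the T-type gene Cacna1h led in CX at 15.7 ± 1.19 CPM per kb (SD, n = 6) and in HIP at 15 ± 2.02 (SD, n = 6), while Cacna1b led in CB at 14.1 ± 1.99 (SD, n = 6). At P7 Cacna1b led in CX at 21.6 ± 3.32 CPM per kb and in HIP, where the next gene, Cacna1h, was at 11.1 ± 1.47 and did not overlap it, and Cacna1g led in CB at 11.1 ± 2.43 (SD, n = 6 each). The range of Cacna1g in P7 CB overlapped that of the next gene, Cacna1a (7.72 CPM per kb). The ranges of Cacna1h and Cacna1b in E17.5 HIP overlapped as well. In adults 4 genes were close together in CX (Cacna1i 14.1, Cacna1b 13.9, Cacna1e 13.3 and Cacna1a 12.2 CPM per kb, with overlapping ranges between neighbours), Cacna1e led in HIP at 16 ± 1.95, and Cacna1g at 38.3 ± 7.68 and Cacna1a at 31.7 ± 10.9 led in CB (SD, n = 5 each). The ranges of those last 2 genes overlapped, and the third gene in adult CB, Cacna1e, was at 12.2 CPM per kb. Cacna1h was the lowest of the 8 in adult CB, at 0.364 ± 0.108 CPM per kb.

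**Figure D1:**
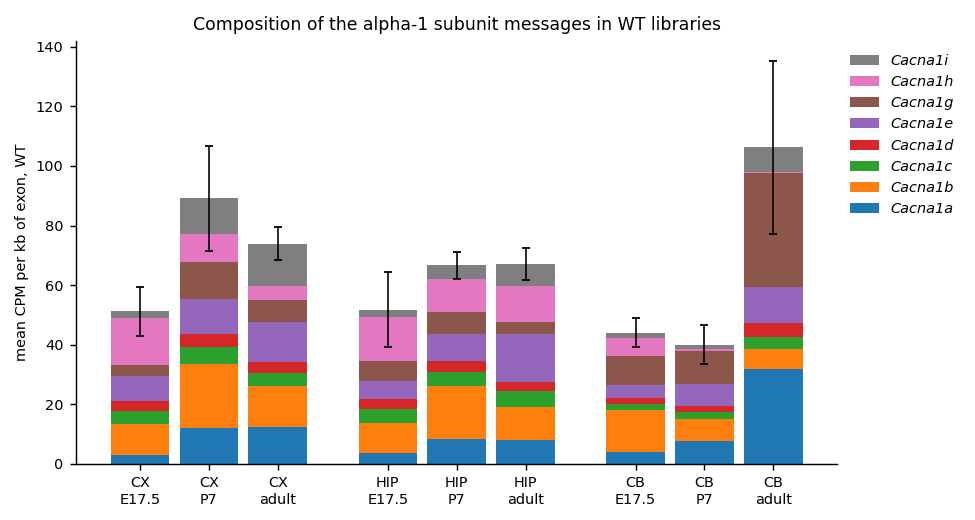
Stacked bars give the mean CPM per kb of merged exon of the 8 alpha-1 subunit genes in WT libraries for 9 region-by-period groups (6 mice each, 5 in adults), and error bars the SD of the sum over libraries. The adult CB bar is the tallest at 106, of which Cacna1g and Cacna1a make the largest blocks, while Cacna1h fills a large block at E17.5 in CX and HIP and nearly none in CB after birth.

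As a share of the summed CPM per kb, Cacna1g rose from 21.9% ± 1.12 at E17.5 to 36.6% ± 2.74 in adult CB and Cacna1a from 9.03% ± 1.02 to 29.4% ± 1.79 (SD, n = 6 and n = 5). Cacna1b went the other way in CB, from 31.9% ± 1.45 to 6.52% ± 0.370. In CX the share of Cacna1h went from 31.1% ± 3.39 to 6.43% ± 0.608 and that of Cacna1i from 4.52% ± 1.02 to 19.1% ± 1.0. The sum itself was 40.0 ± 6.49 CPM per kb in P7 CB and 106 ± 29.0 in adult CB of WT mice, and 39.8 ± 9.56 and 86.9 ± 3.05 in HET mice. In such bulk samples fewer cells of a type and less RNA per cell cannot be told apart.

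The period comparisons asked how each gene changed within a region between E17.5 and P7 and between P7 and adulthood in WT mice, with a call at an adjusted p of 0.1 or less (edgeR quasi-likelihood test, Benjamini-Hochberg over all genes tested). From E17.5 to P7 in CX, 7 of the 8 genes rose and 1 fell, where 41.3% of the 18620 genes tested rose and 40.6% fell. In HIP 4 rose and 1 fell over the same interval (38.9% and 39.1% of 18429 genes), and in CB 2 rose and 3 fell (35.7% and 35.5% of 18626 genes). From P7 to adult, 0 rose and 4 fell in CX (33.2% and 34.5% of genes), 2 rose and 2 fell in HIP (31.3% and 31.5%), and 6 rose and 1 fell in CB (40.0% and 39.4%). The median log2 change of the 8 genes was 0.71 in CX before P7 (0.01 over all genes tested) and 0.96 in CB after P7 (0.01 over all genes). The HET mice are a separate set of animals in which the same comparisons could be repeated. Of the 102 calls of the period, region and interaction comparisons below, 90 were also made there in the same direction. The share of calls repeated in HET mice over all genes was not counted.

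**Figure D2:**
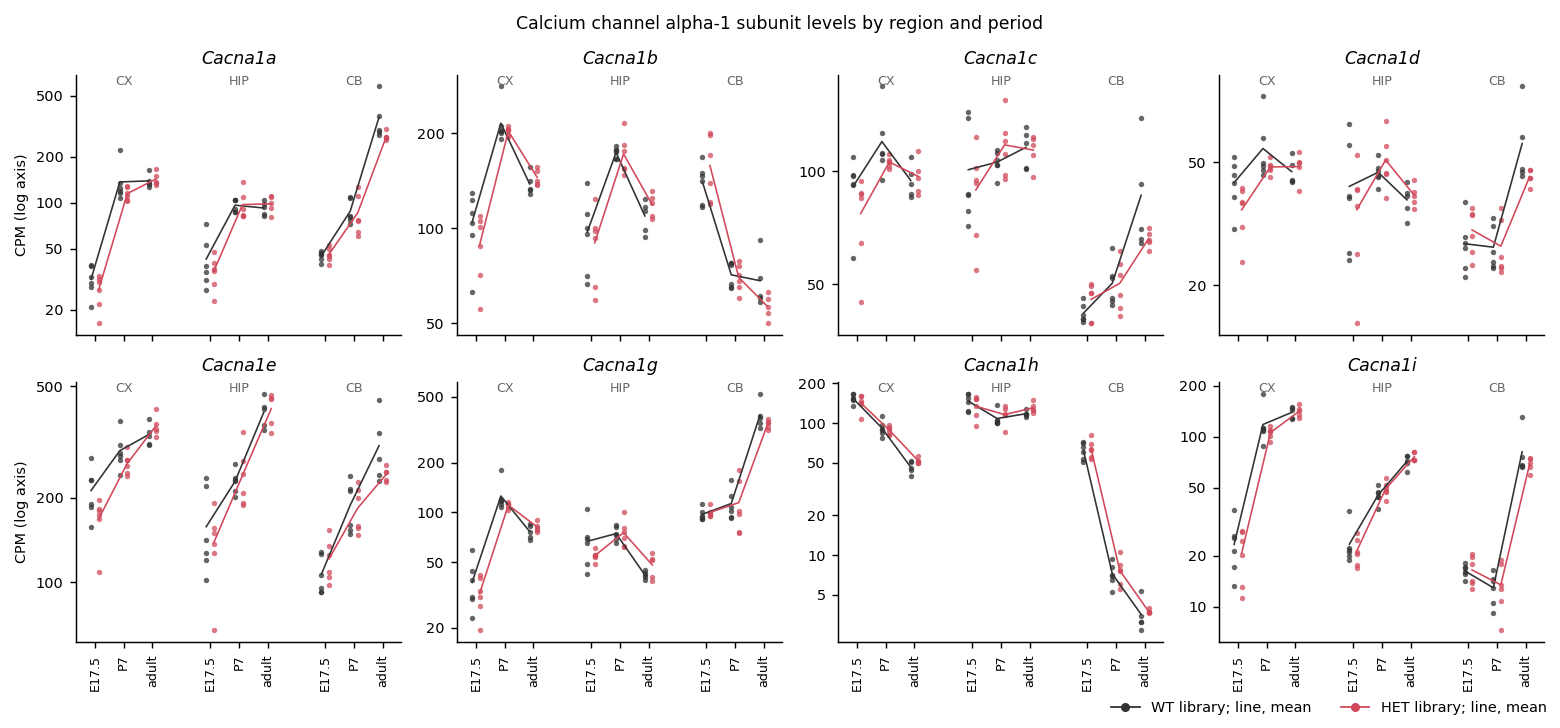
Each panel shows 1 gene, with CPM on a log axis against period within CX, HIP and CB. Points are single WT (dark) and HET (red) libraries and lines join the group means, and the steep cerebellar rises of Cacna1a, Cacna1g and Cacna1i after P7 and the cerebellar loss of Cacna1h stand out.

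Cacna1a, the P/Q-type gene, rose in every region before P7 and again in CB after it. In WT CX its lowest, median and highest values were 21.0, 31.5 and 39.5 CPM at E17.5, 107, 121 and 221 CPM at P7, and 127, 133 and 163 CPM in adults. The E17.5 and P7 libraries did not overlap, whereas P7 and adult libraries did, with 1 P7 library (replicate 4) far above the rest. The log2 change before P7 was 2.06 ± 0.17 (SE, adjusted p = 3.05e-09) in CX, 1.16 ± 0.18 in HIP and 0.96 ± 0.16 in CB. In CB the adult libraries spanned 278, 297 and 576 CPM against 72.8, 81.1 and 109 CPM at P7, without overlap, and the rise was 2.05 ± 0.16 on the log2 scale (adjusted p = 1.24e-09). In HET mice this rise was 1.68 ± 0.14. After P7 the changes in CX (0.06 ± 0.17) and HIP (-0.04 ± 0.18) were not called in WT mice, but the CX change was called in HET mice, at 0.35 ± 0.13 (adjusted p = 0.0276).

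Ordered by mean, adult CB held the most Cacna1a (362 CPM) and lay apart from adult CX (139 CPM). The ranges of adult CX and P7 CX overlapped, as did those of P7 HIP, adult HIP and P7 CB, and the 3 E17.5 groups closed the order with CX lowest at 31.6 CPM.

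Cacna1b, the N-type gene, peaked at P7 in the forebrain and had its cerebellar maximum at E17.5. WT CX held 62.7, 108 and 129 CPM at E17.5, 192, 203 and 281 CPM at P7, and 128, 133 and 156 CPM in adults, and the P7 libraries overlapped with neither neighbour. The log2 change was 1.0 ± 0.13 before and -0.60 ± 0.14 after P7 (adjusted p = 1.68e-06 and 9.93e-04). HIP went the same way, by 0.82 ± 0.13 and then -0.64 ± 0.14. In CB all E17.5 libraries (117, 144 and 168 CPM) lay above all P7 libraries (64.6, 71.3 and 77.4 CPM), a log2 change of -0.99 ± 0.11 (adjusted p = 4.10e-07) that was -1.19 ± 0.12 in HET mice. The cerebellar change after P7 was -0.05 ± 0.12 and not called in WT, and -0.29 ± 0.13 (adjusted p = 0.0426) in HET mice.

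The L-type genes had the narrowest spans of the 8 over the 9 WT groups. Cacna1c in CB went from 39.7, 40.9 and 45.8 CPM at E17.5 to 44.0, 48.9 and 62.2 CPM at P7 and 64.3, 69.9 and 138 CPM in adults, where the P7 and adult libraries did not overlap. The second step was called, at 0.79 ± 0.16 on the log2 scale (adjusted p = 1.62e-04), and the first was not (0.25 ± 0.15). Cacna1d in CB was at 22.7, 24.7 and 33.1 CPM at P7 and at 45.2, 47.5 and 87.9 CPM in adults, a rise of 1.12 ± 0.17 (adjusted p = 1.01e-05). Leaving out adult replicate 3, which gave the highest value of both genes, did not end either call. In HET mice these rises were 0.41 ± 0.09 and 0.76 ± 0.13, and their difference from WT was not tested. In CX both rose before P7, Cacna1c by 0.35 ± 0.13 and Cacna1d by 0.32 ± 0.14 (adjusted p = 0.0247 and 0.0433), with overlapping libraries. The Cacna1d call in CX was lost without E17.5 replicate 4 or P7 replicate 4. After P7 in CX Cacna1c fell by 0.31 on the log2 scale (adjusted p = 0.0648), a call that was lost without any of 5 single libraries (P7 replicates 1 and 4, adult replicates 1, 4 and 6) and was not made in HET mice (-0.10 ± 0.14). In HIP neither gene was called in either step in WT mice, while in HET mice both rose before P7, by 0.37 ± 0.16 and 0.50 ± 0.21. Without E17.5 HIP WT replicate 6 the Cacna1d change was called in WT mice as well.

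Over the 9 WT groups Cacna1c spanned 2.86-fold, from 41.9 CPM in E17.5 CB to 120 CPM in P7 CX, and Cacna1d 2.16-fold, from 26.6 CPM in P7 CB to 57.4 CPM in adult CB. Every pair of neighbours overlapped in the order of Cacna1d, and in that of Cacna1c every pair but adult and P7 CB.

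Cacna1e, the R-type gene, rose in both steps in HIP and CB. WT HIP held 102, 134 and 235 CPM at E17.5, 201, 230 and 265 CPM at P7, and 349, 417 and 471 CPM in adults, where the last group lay above all P7 libraries. The log2 changes were 0.53 ± 0.17 and 0.85 ± 0.17 (adjusted p = 0.00918 and 4.52e-04). CB also rose at each step, by 0.81 ± 0.16 and 0.72 ± 0.17 (adjusted p = 2.77e-04 and 8.64e-04). In CX the first step was 0.43 ± 0.12 (adjusted p = 0.00315). The second, 0.22 ± 0.12, was not called in WT mice (adjusted p = 0.124), was called without P7 CX WT replicate 4 (0.30) and by DESeq2 (0.26), and was 0.48 ± 0.11 in HET mice (adjusted p = 8.33e-04). The order ran from adult HIP (405 CPM) over adult CX (336 CPM) and adult CB (307 CPM) to E17.5 CB (107 CPM), and each group overlapped the next.

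The 3 T-type genes parted company. Cacna1g had its maximum in adult CB, with 323, 374 and 522 CPM against 92.6, 105 and 157 CPM at P7 and 90.8, 94.2 and 113 CPM at E17.5. The step after P7 was 1.79 ± 0.14 on the log2 scale (adjusted p = 5.69e-10) and 1.59 ± 0.17 in HET mice, with no overlap of libraries. The step before P7 was 0.20 ± 0.13 and not called, and was called only when P7 replicate 5 was left out. In CX the gene rose before P7 by 1.69 ± 0.18 (from 22.9, 34.9 and 59.0 CPM to 107, 117 and 180 CPM) and then fell by 0.68 on the log2 scale (adjusted p = 9.16e-08 and 0.00374). In HIP it fell by 0.81 after P7 (adjusted p = 3.37e-04), to 39.1, 41.8 and 44.5 CPM, after a step of 0.14 ± 0.15 that was called only without E17.5 HIP replicate 6 (0.31) and in HET mice (0.43 ± 0.12). Adult CB therefore stood apart in the order at 389 CPM, ahead of P7 CX at 125 CPM.

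Cacna1h was abundant at E17.5 and was lost from the cerebellum. In WT CB it went from 50.6, 62.9 and 71.7 CPM at E17.5 to 5.28, 7.01 and 9.39 CPM at P7 and 2.69, 3.13 and 5.37 CPM in adults. The first step was 8.69-fold, a log2 change of -3.12 ± 0.16 (adjusted p = 8.54e-12), and the second -1.02 ± 0.17 (adjusted p = 2.58e-05), where the highest adult library just reached the lowest P7 library. HET mice gave -3.08 ± 0.13 and -1.01 ± 0.15. In CX the gene fell in both steps without overlap, by 0.79 and 0.95 on the log2 scale, from 135, 152 and 167 CPM over 77.5, 89.3 and 114 CPM to 39.9, 45.6 and 51.8 CPM. In HIP it fell by 0.45 before P7 (adjusted p = 1.98e-04) and stayed at 111, 117 and 127 CPM in adults, with a change after P7 of 0.15 ± 0.09 that was not called, except without P7 HIP replicate 4. Its 9 groups spanned 43.1-fold, the widest range of the 8 genes.

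Cacna1i rose before P7 in CX, in both steps in HIP and after P7 in CB. WT CX held 13.2, 23.2 and 36.9 CPM at E17.5 and 87.8, 111 and 179 CPM at P7, a log2 change of 2.29 ± 0.20 (adjusted p = 6.55e-09), and then 127, 143 and 149 CPM in adults, a change of 0.27 ± 0.20 that was not called in WT mice but was in HET mice (0.45 ± 0.17, adjusted p = 0.026) and in WT mice without P7 CX replicate 4. In HIP it rose in both steps, by 0.95 ± 0.13 and 0.68 ± 0.13. In CB it was at 14.1, 16.3 and 18.1 CPM at E17.5, at 9.14, 13.5 and 16.4 CPM at P7 and at 66.0, 67.9 and 130 CPM in adults. The late cerebellar rise was the largest of the 8 genes in that comparison, 2.67 ± 0.17 (adjusted p = 6.04e-11), or 6.35-fold, and 2.38 ± 0.18 in HET mice. The small cerebellar fall before P7, -0.35 ± 0.16 (adjusted p = 0.0713), was lost when any of 6 of the 12 libraries compared (E17.5 replicates 3, 4 and 6, P7 replicates 2, 4 and 5) was left out and was not called in HET mice.

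The next comparison asked whether the cerebellar change differed from the mean of the changes in CX and HIP, by an interaction term fitted over all WT libraries. The difference is signed, so that a value below 0 means a smaller rise, a larger fall or a fall in place of a rise in CB. Before P7 it was called below 0 for 5 genes and above 0 for 0 (35.1% and 35.6% of 20298 genes). The differences were -2.48 ± 0.14 for Cacna1h, -1.99 ± 0.19 for Cacna1i, -1.93 ± 0.16 for Cacna1b, -0.74 ± 0.19 for Cacna1g and -0.67 ± 0.19 for Cacna1a on the log2 scale (adjusted p from 8.47e-17 to 0.00253). Cacna1h fell in all 3 regions and furthest in CB, and Cacna1b fell in CB while it rose in CX and HIP. After P7 the difference was called above 0 for 6 genes and below 0 for 1 (31.2% and 32.2% of genes). Cacna1g (2.53 ± 0.20), Cacna1i (2.16 ± 0.20), Cacna1a (1.99 ± 0.20), Cacna1d (1.33 ± 0.23), Cacna1c (0.82 ± 0.18) and Cacna1b (0.56 ± 0.17) were above 0, and Cacna1h (-0.63 ± 0.16) was below. For Cacna1b the value above 0 goes with falls in CX and HIP and a change in CB that was not called. Of these, only the Cacna1b difference after P7 was not called in HET mice (0.16 ± 0.18). The 7 calls after P7 were also made whichever mouse was left out. Cacna1e was not called in either interval (0.31 ± 0.19 and 0.16 ± 0.20).

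**Figure D3:**
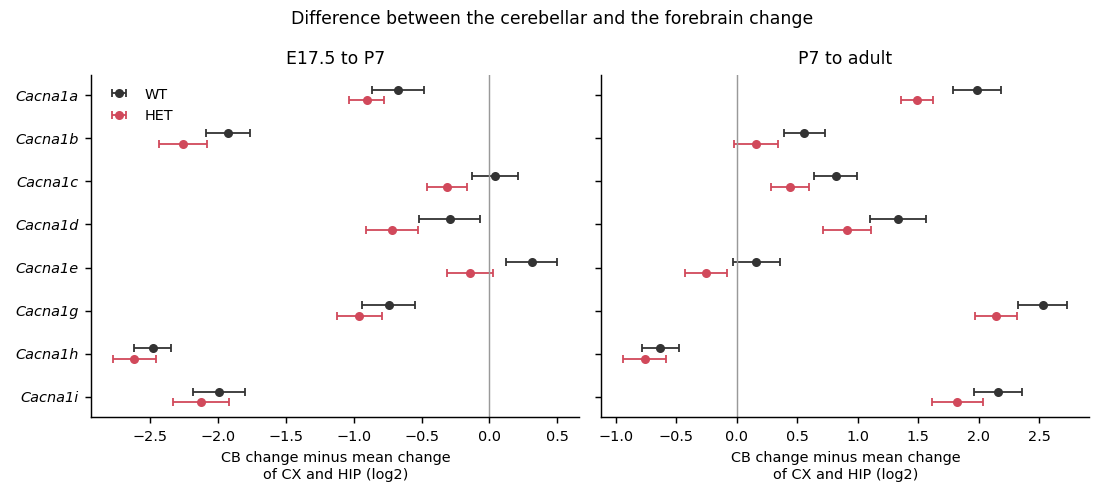
For each of the 8 genes, the cerebellar log2 change minus the mean log2 change of CX and HIP is shown with its SE, for E17.5 to P7 (left) and P7 to adult (right). Dark points are from WT and red points from HET libraries, and Cacna1g, Cacna1i and Cacna1a lie furthest to the right after P7, between 1.49 and 2.53.

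Markers of the 2 principal cerebellar neurons rose over the same interval as these genes. The 6 Purkinje cell genes, all measured, summed to 1780 to 2060 CPM in P7 and 8280 to 10100 CPM in adult CB of WT mice, and the 5 granule cell genes, all measured, to 735 to 879 CPM and 2870 to 3150 CPM. The 4 general neuron genes went from 1050 to 1180 CPM to 3350 to 3560 CPM, and the 4 progenitor genes from 760 to 939 CPM to 35.7 to 52.7 CPM. The part of these shifts in the changes of the channel genes was not tested.

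The region comparisons asked how the levels differed between regions of the same mice, with mouse as a block. At E17.5, CX against HIP gave the fewest calls, 1 higher and 2 lower in CX (22.3% and 24.2% of the 17793 genes tested). Cacna1g was lower in CX, with a log2 difference of -0.85 (adjusted p = 0.00624). The other calls, Cacna1a (-0.43 ± 0.19, adjusted p = 0.0968) and Cacna1e (0.43 ± 0.19, adjusted p = 0.087), lay near the threshold, and the 3 calls became 1 or 2 whichever mouse was left out. Against CB, 5 genes were higher and 3 lower in CX (30.3% and 31.3% of genes), and 5 higher and 2 lower in HIP (24.5% and 25.0%). Cacna1h was higher in CX than in CB by 1.28 ± 0.11 and Cacna1c by 1.08 ± 0.16, while Cacna1g was lower, with a log2 difference of -1.43 (adjusted p = 7.15e-05). Of the 8 calls between CX and CB, 5 were made both in HET mice and whichever mouse was left out. Cacna1b, Cacna1d and Cacna1i were not among them. In HIP against CB only Cacna1b, Cacna1c and Cacna1h were called whichever mouse was left out. Without the mouse of replicate 6, Cacna1d, Cacna1e and Cacna1i were not called and 4 calls were left.

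At P7 the forebrain exceeded CB for most members. In CX 7 genes were higher than in CB and 0 lower (38.8% and 44.1% of 18493 genes), and in HIP 5 were higher and 1 lower (36.0% and 42.3%). The largest differences were those of Cacna1h (3.61 ± 0.12 for CX and 3.84 ± 0.12 for HIP against CB), Cacna1i (3.13 ± 0.12 and 1.76 ± 0.12) and Cacna1b (1.54 ± 0.08 and 1.22 ± 0.08), all called in HET mice too. Cacna1g was higher in CB than in HIP (log2 difference of HIP over CB -0.66) and did not pass between CX and CB (0.09 ± 0.13). Between CX and HIP, 6 were higher in CX and 1 lower (29.2% and 27.8%), led by Cacna1i at 1.38 ± 0.11 (adjusted p = 1.17e-07), with 87.8 to 179 CPM in CX and 37.7 to 52.1 CPM in HIP. Only 4 of these 7 calls were made both in HET mice and whichever mouse was left out. Cacna1d, Cacna1e and Cacna1h were not among them.

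In adults the members split. CX against CB gave 3 genes higher and 3 lower in CX (36.5% and 38.9% of 18269 genes), and HIP against CB gave 4 higher and 3 lower in HIP (36.8% and 38.3%). Cacna1h was 33.6-fold higher in HIP than in CB, a log2 difference of 5.07 ± 0.13 (adjusted p = 3.71e-12), and 13.3-fold higher in CX than in CB. Cacna1g was lower in HIP and CX than in CB, with log2 differences of -3.21 and -2.33, as was Cacna1a, with -1.94 and -1.34. Cacna1b was higher in CX than in CB by 1.04 ± 0.08 and Cacna1i by 0.81 ± 0.14. Between CX and HIP, 5 were higher and 1 lower in CX (25.9% and 25.5%). The one that was lower, Cacna1h, had a log2 difference of -1.34 (39.9 to 51.8 CPM in CX and 111 to 127 CPM in HIP, adjusted p = 6.98e-07), whereas its T-type relatives Cacna1i (0.97 ± 0.14) and Cacna1g (0.88 ± 0.09) were higher in CX. Cacna1d between CX and CB (-0.27 ± 0.13, adjusted p = 0.0861) was lost without any of 3 mice, among them that of replicate 3, whose CB library is described below, and had the opposite sign in HET mice (0.14 ± 0.07). Cacna1c (0.18 ± 0.13) and Cacna1e (0.17 ± 0.12) were not called between CX and CB, but both were higher in CX without the mouse of CB replicate 3, by 0.33 and 0.27, and in HET mice, by 0.58 and 0.61.

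The alpha-1 subunits work with accessory subunits, and the list of such partners held 39 genes (alpha-2-delta, beta and gamma subunits, other regulators, calmodulins and proteins of the release site, plus Cacna1f and Cacna1s). Before P7, 30 of the 38 tested partners rose and 6 fell in CX (41.3% and 40.6% of all genes tested). In HIP 29 of 36 rose and 6 fell (38.9% and 39.1% of all genes), and in CB 15 of 36 rose and 16 fell (35.7% and 35.5%). After P7, 19 of 38 rose and 10 fell in CX (33.2% and 34.5% of all genes). In HIP 16 of 36 rose and 7 fell (31.3% and 31.5%), and in CB 21 of 36 rose and 9 fell (40.0% and 39.4%). The median log2 change of the partners was 1.31 in CX before P7 and 0.49 in CB after P7. In the interaction before P7, the CB change lay below the mean of CX and HIP for 30 of 38 partners and above it for 4 (35.1% and 35.6% of all genes). Cacnb4, the beta subunit that binds the P/Q-type channel and whose loss causes ataxia in mice, rose by 3.07 ± 0.10 in CB after P7 (adjusted p = 1.48e-15), from a mean of 61.8 to 516 CPM, and by 1.65 ± 0.13 in CX. Cacna2d2, the alpha-2-delta subunit of Purkinje cells, rose by 1.43 ± 0.12 in CB after P7 (adjusted p = 2.38e-09), while Cacna2d1 fell there by 0.27 on the log2 scale and Cacna2d3 rose by 0.51 ± 0.09. Cacnb2 rose by 1.96 ± 0.11 and Cacnb1 and Cacnb3 fell in CB after P7, by 0.63 and 0.36 on the log2 scale. Before P7 in CB, Cacnb1 (-1.0 ± 0.08), Cacnb2 (-0.71 ± 0.10), Cacnb3 (-0.44 ± 0.09) and Cacna2d2 (-0.44 ± 0.11) fell, and Cacnb4 (0.74 ± 0.09), Cacna2d3 (0.60 ± 0.08) and Cacna2d1 (0.21 ± 0.10) rose. In CX before P7 Cacna2d4 (3.57 ± 0.29), Cacnb2 (2.41 ± 0.10), Cacna2d3 (1.69 ± 0.15) and Cacnb4 (1.11 ± 0.12) rose, whereas Cacnb3 fell by 0.30 on the log2 scale. Cacna2d4 rose in all 6 period comparisons but stayed at a mean of 3.16 CPM or less. Cacna1s, the alpha-1 subunit of skeletal muscle, averaged at most 1.39 CPM in any WT group.

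Across the means of the 9 WT groups, the gene closest in pattern to Cacna1a was Atp1b2 (Pearson r of mean log2 CPM 0.99, and 0.99 over the 9 HET groups), followed by Lurap1 and Cdk16. The same search over 13971 genes gave Trpm4, Tspyl3 and Pcdha4 for Cacna1b, Ltbp4, Pcnx and Lmo7 for Cacna1c, Lypd6, Chst10 and Fam174b for Cacna1d, Armc1, Tnr and Clic5 for Cacna1e, Trim62, Psg16 and Tmem266 for Cacna1g, Sp9, Bcl11b and Rnf32 for Cacna1h, and Kantr, Shank1 and Smap2 for Cacna1i. The 24 correlations lay between 0.92 and 0.99 in WT and between 0.80 and 0.99 in HET mice. Within the family, Cacna1e and Cacna1i (r = 0.83), Cacna1d and Cacna1i (0.80), Cacna1c and Cacna1d (0.79) and Cacna1a and Cacna1g (0.77) were most alike, and Cacna1g and Cacna1h were most opposed (-0.82). These values describe 9 points each, which share their libraries and scaling.

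The genotype comparisons asked whether the heterozygous Cul3 mutation changed the alpha-1 subunits within each region and period. No member was called in any of the 9 datasets by the edgeR quasi-likelihood test, and none was called by DESeq2, the likelihood ratio test or any other alternative, including the fits without single libraries. By the quasi-likelihood test the share of all genes called was 0.00603% in E17.5 CX, 0.00586% in E17.5 HIP, 0.00568% in E17.5 CB, 0.00566% in P7 CX, 0.00563% in P7 HIP, 0.00570% in P7 CB, 0.00569% in adult CX, 0.00584% in adult HIP and 0.00584% in adult CB, which is 1 gene each, Cul3. The shares of all genes called by the alternatives are not given here and need not be the same. At an unadjusted p under 0.05 there was 1 member in E17.5 CX, 1 in adult CX, 1 in adult HIP and 4 in adult CB, and 0 in the other 5 datasets. The share of all genes tested under that p was 1.67% in E17.5 CX, 3.66% in adult CX, 6.25% in adult HIP and 14.4% in adult CB. By DESeq2 there was 1 in E17.5 CX, 1 in adult CX, 2 in adult HIP and 5 in adult CB. The share of all genes under that p was not counted for DESeq2 or the other alternative fits.

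**Figure D4:**
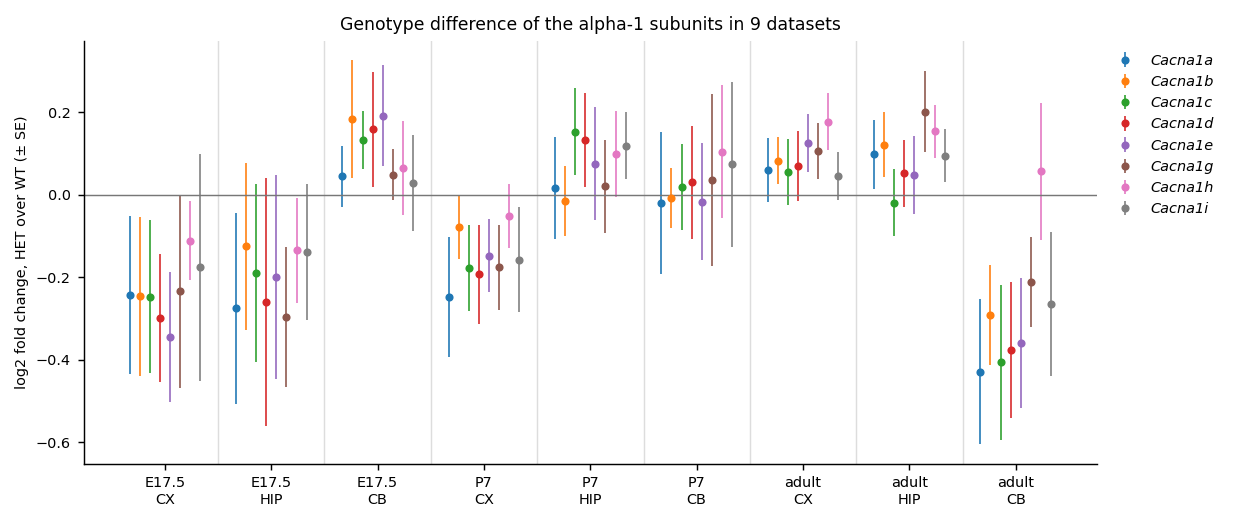
Points give the log2 fold change of HET over WT and bars its SE for the 8 alpha-1 subunit genes in 9 datasets, with 6 mice per genotype, or 5 in adults. All points are within 0.43 of 0, the 8 genes of a dataset mostly share a sign, and 7 of the 8 are below 0 in adult CB.

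The 8 genes tended to lean the same way within a dataset. Their median log2 fold change was -0.24 in E17.5 CX and -0.17 in P7 CX with all 8 below 0, -0.19 in E17.5 HIP with all 8 below 0, 0.10 in E17.5 CB and 0.08 in adult CX with all 8 above 0, 0.09 in P7 HIP and 0.10 in adult HIP with 7 above 0, and 0.02 in P7 CB with 5 above 0. In adult CB it was -0.33 with 7 below 0. The median over all genes lay between -0.003 and 0.007 in these datasets. A further fit joined 3 RUVs factors, upper-quartile scaling and a likelihood ratio test. In it the members' medians were -0.07 in E17.5 CX (7 below 0), -0.02 in E17.5 HIP (5 below 0), -0.06 in P7 CX (7 below 0), -0.06 in P7 CB (7 below 0) and -0.09 in adult CB (6 below 0). The RUVs medians of E17.5 CB, P7 HIP, adult CX and adult HIP are not given here. The members with the smallest p were Cacna1e in E17.5 CX (-0.34 ± 0.16, adjusted p = 0.991), Cacna1g in E17.5 HIP (-0.30 ± 0.17, adjusted p = 0.941), Cacna1c in E17.5 CB (0.13 ± 0.07, adjusted p = 0.988), Cacna1g in P7 CX (-0.18 ± 0.10, adjusted p = 0.9), Cacna1i in P7 HIP (0.12 ± 0.08, adjusted p = 0.833), Cacna1h in P7 CB (0.11 ± 0.16, adjusted p = 0.994), Cacna1h in adult CX (0.18 ± 0.07, adjusted p = 0.997), Cacna1h in adult HIP (0.15 ± 0.06, adjusted p = 0.796) and Cacna1a in adult CB (-0.43 ± 0.18, adjusted p = 0.343). In E17.5 CX same-numbered WT and HET mice were taken as paired. There the fit with the replicate number as a block left the median at -0.25. It called 55 genes in all and still 0 members. All 8 members had an unadjusted p under 0.05 in it, with a lowest adjusted p of 0.131. The share of all genes under that p was not counted for this fit, and the 1.67% above is from the fit without the block.

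In adult CB the size of the difference depended in part on 1 WT library, replicate 3. Cacna1a was at 291, 297, 576, 368 and 278 CPM in WT replicates 1, 2, 3, 5 and 6 and at 264, 303, 268, 270 and 259 CPM in the HET replicates of the same numbers. WT replicate 3 was the highest of the 10 libraries for every one of the 8 genes, WT replicate 5 was the next for 7 of them (all but Cacna1h), and the other 3 WT libraries overlapped with the HET libraries. Cacna1e showed the same order, with 446 CPM in WT replicate 3, 342 CPM in replicate 5, 230 to 276 CPM in the other WT libraries and 227 to 261 CPM in HET. Without WT replicate 3 the median of the 8 genes was -0.17, with 2 members at an unadjusted p under 0.05 (share of all genes not counted). The Cacna1a difference was then -0.20 ± 0.08 (adjusted p = 0.392). In that library the 6 cortical projection neuron genes summed to 665 CPM (435 to 510 CPM in the other 9) and the 5 hippocampal neuron genes to 474 CPM (245 to 380 CPM). The 5 granule cell genes were highest there as well, at 3150 CPM (2860 to 3030 CPM in the other 9). The 6 Purkinje cell genes, at 8830 CPM, lay inside the range of the others. The 4 neuron genes, at 3350 CPM, lay just below theirs (3360 to 3680 CPM). The 5 thalamus genes were at 92.3 to 107 CPM in WT and 108 to 111 CPM in HET adult CB. They are named because the ranges of the other marker lists overlapped between the genotypes. How often a list separates in this way was not tested. The part of these marker values in the difference was not tested.

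Single libraries also moved the medians of other datasets. In P7 CX, WT replicate 4 was the highest of the 12 libraries for all 8 genes (Cacna1a 221 CPM against 107 to 134 CPM in the other WT and 103 to 129 CPM in the HET libraries), and without it the median went from -0.17 to -0.05. In E17.5 HIP the median went from -0.19 to -0.06 without WT replicate 6, and in E17.5 CX from -0.24 to -0.13 without HET replicate 4. Without WT replicate 4 of E17.5 CX, which was low as well, the median was -0.35 with 3 members at an unadjusted p under 0.05 (share of all genes not counted). The medians of P7 HIP and P7 CB changed sign without HET replicate 3, to -0.01 and -0.05.

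These libraries differed from their groups in more than the calcium channels. The members' median log2 deviation from the group median was 0.83 in adult CB WT replicate 3, 0.76 in E17.5 HIP WT replicate 6, 0.61 in P7 CX WT replicate 4, -0.75 in E17.5 CX HET replicate 4, -0.68 in E17.5 HIP HET replicate 4 (the same mouse) and -0.59 in E17.5 CX WT replicate 4, and within 0.45 in the other 96 libraries. In the same 6 libraries the median deviation of 2485 other coding genes with at least 8000 bp of merged exon was 0.15, 0.11, 0.16, -0.10, -0.13 and -0.06, and that of 1822 coding genes with less than 2500 bp was -0.19, -0.20, -0.24, 0.20, 0.14 and 0.13. Over the 102 libraries the members' deviation went with that of the long genes (Pearson r = 0.86) and against that of the short genes (r = -0.83), values that describe libraries of 18 groups and share their scaling. The part of this library-wide shift in the genotype differences of the members was not tested. Leaving out the 7 libraries whose long genes deviated by 0.1 or more, an alternative chosen after the data were seen, again called 0 members, with medians of -0.13 in E17.5 CX, 0.06 in E17.5 HIP, -0.05 in P7 CX, -0.01 in P7 CB and -0.17 in adult CB.

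**Figure D5:**
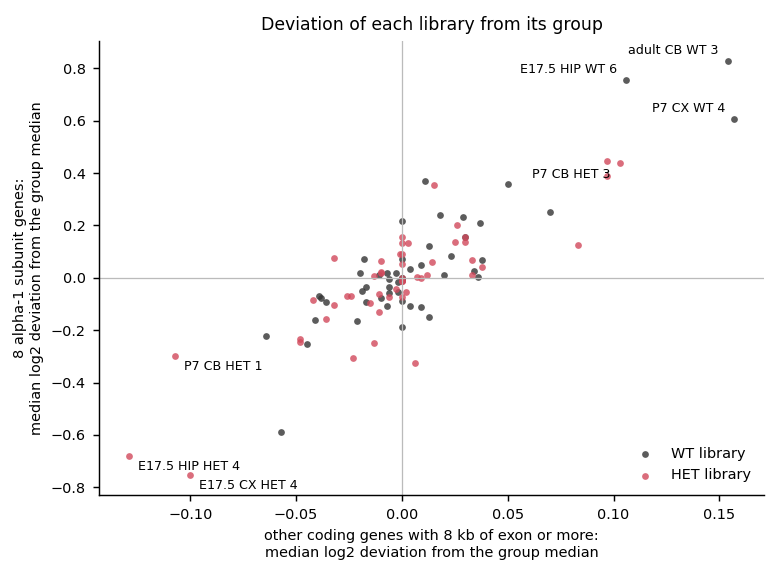
Each point is 1 of 102 libraries, with the median log2 deviation from its group median of 2485 long coding genes on the x axis and of the 8 alpha-1 subunit genes on the y axis. The labelled libraries lie at the ends of a common diagonal, with adult CB WT replicate 3 at 0.15 and 0.83.

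Among the partners, 0 of the 34 to 37 tested were called between genotypes in any dataset, with median log2 fold changes from -0.17 in E17.5 HIP to 0.03 in adult HIP, and -0.07 in adult CB.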

How the data were processed

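Total RNA was sequenced from 108 libraries of 36 mice, 3 brain regions per mouse. The authors trimmed reads with Cutadapt 1.14, aligned them with STAR 2.5.3a to GRCm38 (mm10) and deposited RSEM 1.3 expected counts per gene, of which 5.76% were not whole. Values were rounded to whole numbers, low genes were removed with filterByExpr (minimum count 10, minimum total 15), TMM factors were applied, and edgeR 4.0.16 (R 4.3.3) quasi-likelihood tests were run with Benjamini-Hochberg adjustment over all genes tested and a threshold of 0.1. Genotype was tested within each region and period, period within region, and region with mouse as a block. Values printed after ± beside a log2 change are SE. Each was derived from the test, as the size of the change divided by the square root of its F statistic. TMM CPM, levels per kb and their SD are descriptions.

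Groups came from the labels. The 6 libraries of 2 adult mice were left out, since the labels and the quality table of the study disagree on genotype. All 8 genes were described in every comparison, partners by counts with the alpha-2-delta and beta subunits named, and likeness by the 3 genes with the highest Pearson correlation. The genes and lists were chosen with earlier results of these data known. Same-numbered mice were taken as paired in E17.5 CX, where all 6 pairs of deviations correlated above 0.1 (lowest 0.113). This pairing comes from the data and from shared replicate numbers. In E17.5 HIP and CB, from the same mice, 5 of 6 pairs did so. P7 HIP numbers its mice in another order than P7 CX. The main genotype test used no block in any dataset. No 2 replicates were alike within sampling noise (lowest chi-square per gene 4.71 over 270 pairs). Alternatives were DESeq2 1.42.0, upper-quartile scaling, no low-count filter, and a likelihood ratio test, alone or with 3 RUVs factors and upper-quartile scaling. Others were the replicate block, a sex-linked covariate, HET libraries, the excluded mice put back, and fits without single libraries or mice. The scripts were tested on simulated data.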

Additional observations from a re-analysis of the deposited data

Results flagged for a closer look

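In 12 of 144 groups of a gene, period, region and genotype (8.33%), the gap of the highest or lowest library to its neighbour exceeded Dixon's 95% critical value for the range of the group, and these fell on 8 libraries. Chance marks about 1 in 20 independent groups this way, but these groups are not independent, since the 8 genes share their libraries. P7 CX WT replicate 4 was apart for 4 genes, at 221 CPM for Cacna1a (107 to 134 CPM in the others), 281 CPM for Cacna1b (192 to 211 CPM), 180 CPM for Cacna1g (107 to 119 CPM) and 179 CPM for Cacna1i (87.8 to 112 CPM). Adult CB WT replicate 3 was apart for Cacna1g at 522 CPM (323 to 380 CPM) and Cacna1i at 130 CPM (66.0 to 76.1 CPM). Single genes were apart in adult CB HET replicate 2 (Cacna1a, 303 CPM against 259 to 270 CPM), E17.5 CX WT replicate 4 (Cacna1c, 58.5 CPM against 91.7 to 109 CPM), E17.5 CX HET replicate 4 (Cacna1e, 109 CPM against 168 to 196 CPM), E17.5 CB HET replicate 1 (Cacna1g, 112 CPM against 95.1 to 100 CPM), P7 HIP WT replicate 4 (Cacna1h, 137 CPM against 100 to 106 CPM) and E17.5 HIP WT replicate 6 (Cacna1i, 36.5 CPM against 18.9 to 22 CPM).

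The cerebellar change differed from the mean change of CX and HIP, by the edgeR interaction test in WT mice, for 5 genes before P7, with log2 differences of -0.67 for Cacna1a, -1.93 for Cacna1b, -0.74 for Cacna1g, -2.48 for Cacna1h and -1.99 for Cacna1i. After P7 it differed for 7 genes, with 1.99 for Cacna1a, 0.56 for Cacna1b, 0.82 for Cacna1c, 1.33 for Cacna1d, 2.53 for Cacna1g, -0.63 for Cacna1h and 2.16 for Cacna1i.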

How the results depend on the processing

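Over 442 recounts of the members called in the 26 comparisons, 5 moved by more than 1.5 times. From E17.5 to P7 in HIP, 8 members were called in HET mice against 5 in WT mice. For CX against HIP at E17.5 the count went from 3 to 1 without WT mice 1 and 4 of HIP, whose libraries were the smallest, and to between 1 and 2 without single mice. For HIP against CB at E17.5 it went from 7 to between 4 and 7 without single mice, and to 4 without the libraries whose long genes stood apart, an alternative chosen after the data were seen. Of 2297 recomputed member values, 2160 kept their call or its absence (31 of them with a change of sign that was not called in either fit), 76 lost the call, 57 gained it and 4 turned with a call in at least 1 fit, those 4 all in HET mice: Cacna1d for CX against HIP at P7 (-0.026) and for CX against CB in adults (0.14), Cacna1i for HIP against CB in adults (0.17) and Cacna1c in the interaction before P7 (-0.31). The cause was not tested.

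With the replicate number as a block, 0 members were called between genotypes in any of the 9 datasets, as without it. The rule of all pairs above 0.1 was met in E17.5 CX alone, where the block changed no member's call. E17.5 HIP and CB, from the same mice with the same numbers, had 5 of 6 pairs above it. With both excluded mice put back, the adult CB median was -0.34 with the genotype of the labels and -0.22 with that of the quality table. In the RUVs fit, without those mice, it was -0.09. Only 1 scaling moved the median of all genes by over 0.1, by 0.145 (E17.5 to P7 in CX, no low-count filter). With 5 or 6 mice per group, small differences could not be told from the spread between mice, and the values rest on whole-gene counts that do not resolve splice forms.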
